A study of Mus musculus with 6 samples.

Results

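The T lineage regulators and receptor genes are 10 genes chosen by symbol: the CD3 chains Cd3e, Cd3d and Cd3g, the zeta chain Cd247, the kinases Lck and Zap70, the transcription factors Tcf7, Gata3 and Bcl11b, and the surface protein gene Thy1. Of these, 8 had at least 1 probe set annotated to that symbol alone, among 18194 genes measured this way. Lck and Tcf7 had none in the annotation used and are not analysed here. The 8 genes had 16 probe sets of 45101 in all, and each gene was read at the probe set with the highest mean over the 6 arrays.

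RNA was measured on Affymetrix 3' arrays from progenitors sorted from adult mouse bone marrow, in 3 groups of 2 arrays. WT LSK FLT3- cells came from C57bl/6 mice and were lineage-negative, SCA1-positive and KIT-positive without surface FLT3, a gate that holds the stem cells. WT LMPP, lymphoid-primed multipotent progenitors, came from the same strain and shared that gate but had high surface FLT3. E2A-KO LMPP were sorted as LMPP from E2A-KO mice on a C57bl/6 background; E2A proteins are the transcription factors encoded by Tcf3. The sources used here describe neither the E2A allele nor whether replicate arrays stand for different animals or sorts. A p-value below therefore measures the spread of these arrays, which may be only technical.

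T cells recognise antigen through a receptor whose variable chains are carried to the surface by the CD3 chains and the zeta chain. Lck phosphorylates the tyrosine motifs of these chains, and Zap70 then docks there and passes the signal on. Upstream of this machinery, Notch signalling in the thymus is known to switch on Tcf7 and Gata3 and later Bcl11b, which closes off other fates; E2A acts with its relative HEB in the same cells. The cells measured here are marrow cells before the thymus, where most of these genes are known to be silent or low.

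Log2 of the deposited intensity is the level throughout, and a difference is a difference of log2 levels. The arrays had a median of 3.90 to 4.04 over all probe sets, and replicates correlated with Pearson's r of 0.989 to 0.996 across probe sets, which are not independent replicates. No detection calls came with the values. As a guide to the floor, 44 probe sets of olfactory receptor genes, which marrow is not known to use, had a 95th percentile of 4.08 to 4.44 on the LMPP arrays and of 3.67 and 3.70 on the LSK FLT3- arrays. The gate marker Flt3 was at 10.80 and 10.80 for WT LMPP, 10.70 and 10.76 for E2A-KO LMPP and 8.87 and 8.76 in LSK FLT3-, so its RNA was well above the floor in the FLT3-negative gate too. Tcf3, the targeted gene, was at 6.93 and 6.87 for WT LMPP, 6.80 and 6.53 for E2A-KO LMPP and 7.27 and 7.41 in LSK FLT3-. No source used here says whether its probe sets fall inside the deleted region, so this does not check the labels.

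The promoters of Cd3d, Cd3g and Zap70 are shown because E2A proteins bind E-box letters and because these genes span the range of levels found, from under the floor guide to well above it. Each is the 250 bases before a transcript start of the gene in RefSeq's GRCm38.p6 annotation, printed 5′ to 3′ on the gene's strand, with the E-box letters CANNTG in capitals. Zap70 has 3 such starts in that table, and the most upstream was taken.
Cd3d, chr9:44981536-44981785, + strand: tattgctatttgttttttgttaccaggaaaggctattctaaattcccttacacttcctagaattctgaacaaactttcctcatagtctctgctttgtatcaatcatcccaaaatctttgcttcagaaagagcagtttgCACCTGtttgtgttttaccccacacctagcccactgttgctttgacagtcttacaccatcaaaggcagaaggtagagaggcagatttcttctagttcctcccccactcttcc
Cd3g, chr9:44980432-44980681, - strand: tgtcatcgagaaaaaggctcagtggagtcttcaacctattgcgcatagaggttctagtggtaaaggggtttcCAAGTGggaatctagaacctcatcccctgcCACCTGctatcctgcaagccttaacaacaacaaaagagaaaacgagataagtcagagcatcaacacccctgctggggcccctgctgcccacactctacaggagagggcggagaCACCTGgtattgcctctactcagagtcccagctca
Zap70, chr1:36761548-36761797, + strand: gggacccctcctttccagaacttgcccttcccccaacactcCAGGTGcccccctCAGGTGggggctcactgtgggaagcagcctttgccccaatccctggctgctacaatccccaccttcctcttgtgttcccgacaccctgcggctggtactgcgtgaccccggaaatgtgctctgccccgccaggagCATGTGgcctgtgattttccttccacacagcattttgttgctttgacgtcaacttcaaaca

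A RefSeq window of this kind was at hand for 7 of the 8 measured members, Thy1 being the exception. The windows of Cd3g and Zap70 lie wholly before the gene as annotated; the others overlap the widest annotated extent of their gene, so that another start further upstream is annotated too. Of the 7, 5 held at least 1 CANNTG, against 66.2% of 32851 windows of this length, and those of Gata3 and Bcl11b held none. CANNTG reads the same on both strands. The narrower letters CACCTG, searched on both strands and contained within CANNTG, were in 4 of the 7, Cd3d, Cd3g, Cd247 and Zap70, against 17.2% of all windows. CAGNTG, which on both strands takes in CACCTG, was in the same 4 and in 44.8% of all windows. Cd3g had 3 E-boxes, first bases 178, 148 and 35 before the start, and Zap70 had 3, at 209, 196 and 61. Cd3d had 1, CACCTG at 112, and Cd3e had 1, CAAGTG at 57. The Gata letters AGATAA, on both strands, were in the Cd3g window alone among the 7, against 9.99% of all windows. These matches describe letters and do not show binding.

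At the floor guide the members fell into 3 kinds. Cd3e, Zap70 and Thy1 were above the olfactory receptor 95th percentile on all 6 arrays. Cd247 was above it on the 4 WT arrays, and Gata3 and Bcl11b only on the 2 LSK FLT3- arrays. Cd3d and Cd3g were above it on 0 arrays. Of all 16 probe sets, 8 were above it on 0 arrays and 3 on all 6. On each array 44.8% to 57.8% of all probe sets lay at or under the guide. How many lay under it on all 6 was not counted. Probes differ in how brightly they bind, so levels are not set against each other between genes.

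**Figure D1:**
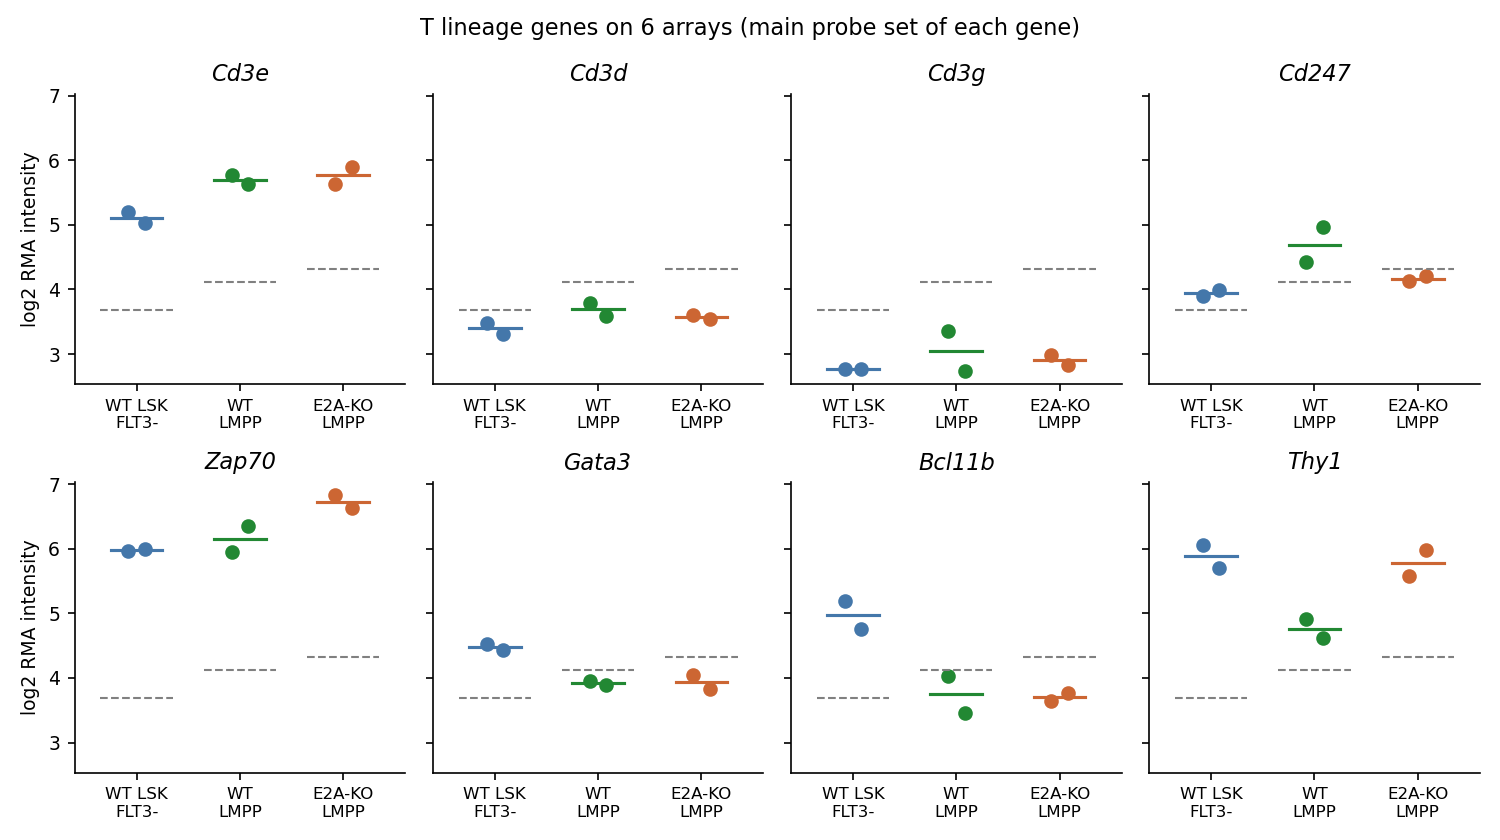
Log2 RMA intensity of the main probe set of each measured member (y axis) in the 3 groups (x axis); points are the 2 arrays, the solid bar their mean and the dashed line the group's mean of the olfactory receptor 95th percentile. Cd3d and Cd3g lie under the dashed line in every group, Gata3 and Bcl11b are above it in WT LSK FLT3- alone, and Thy1 is lowest in WT LMPP.

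Between E2A-KO and WT LMPP, 1 of the 8 measured members passed, Thy1, which rose; the CD3 chains, Cd247, Zap70, Gata3 and Bcl11b did not pass. Over all 18194 genes 1.37% passed and 0.379% were higher and 0.995% lower. The median difference of the 8 members was -0.01, against -0.02 over all genes; in the next 2 comparisons it was 0.22 against -0.01 and 0.155 against -0.02. Between WT LMPP and WT LSK FLT3-, 5 of the 8 passed, with Cd3e and Cd247 higher in LMPP and Gata3, Bcl11b and Thy1 lower, where 34.1% of all genes passed, 10.4% higher and 23.7% lower. Between E2A-KO LMPP and WT LSK FLT3-, 4 of the 8 passed, with Cd3e and Zap70 higher and Gata3 and Bcl11b lower, where 37.5% of all genes passed, 11% higher and 26.5% lower. Each pair of comparisons shares a group of arrays, so they do not repeat each other independently. The moderated test of limma was fitted to the 6 arrays together, its p adjusted by Benjamini and Hochberg over all 18194 genes, with a threshold of 0.05. In bulk samples, fewer cells of a type and less RNA per cell cannot be told apart.

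**Figure D2:**
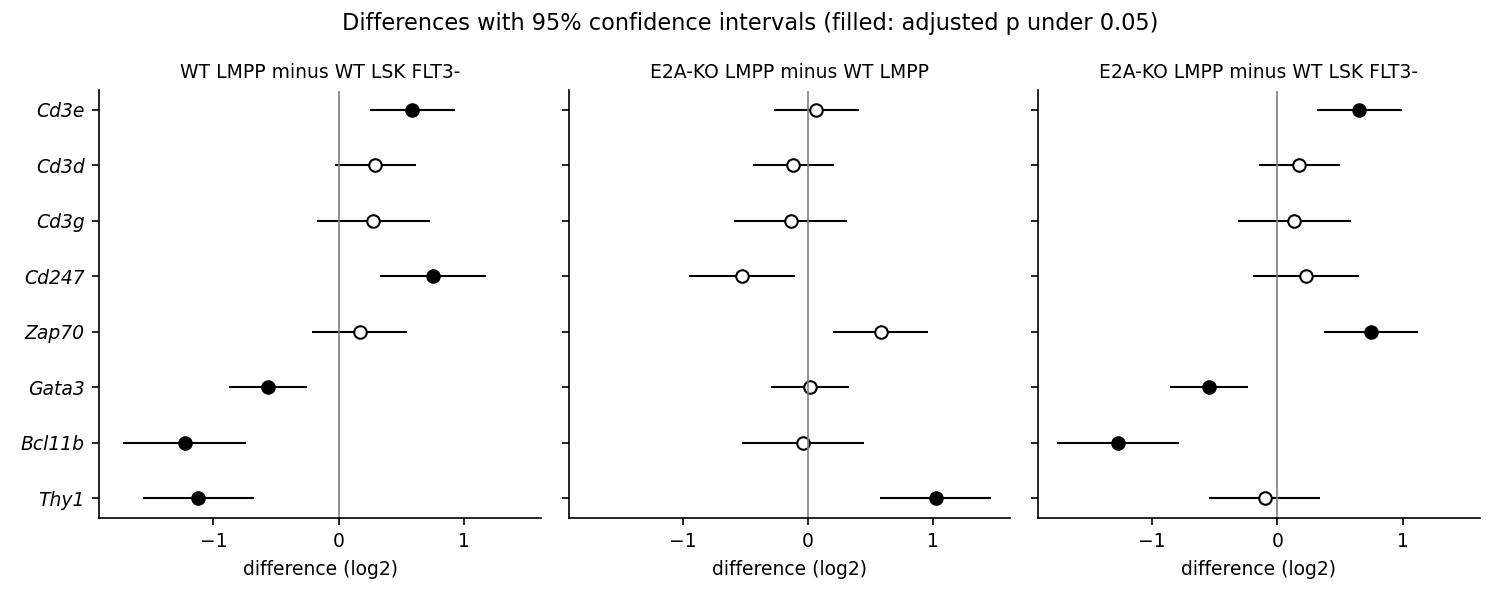
Difference in log2 level (x axis) for each measured member (y axis) in the 3 comparisons; the lines are 95% confidence intervals from the model, not adjusted for the number of genes, and filled points passed with an adjusted p under 0.05. Thy1 is the only filled point for E2A-KO against WT LMPP, and Bcl11b and Gata3 lie at negative values against WT LSK FLT3- in both LMPP genotypes.

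Cd3e encodes the epsilon chain, which pairs with both the gamma and the delta chain. Its probe set 1422105_at read 5.19 and 5.03 on the LSK FLT3- arrays, against 5.77 and 5.63 for WT LMPP and 5.63 and 5.89 for E2A-KO LMPP. Both LMPP groups were above both LSK FLT3- arrays and overlapped each other. Cd3e was 0.59 higher in WT LMPP than in LSK FLT3- (SE 0.15, limma adjusted p = 0.0155), a 1.5-fold difference, and 0.65 higher in E2A-KO LMPP (SE 0.15, adjusted p = 0.00885). Between the LMPP genotypes the difference was 0.07 (95% interval -0.27 to 0.40, adjusted p = 0.882). The WT LMPP rise lost its call without WT LMPP replicate 1 (0.52, adjusted p = 0.0616) or without LSK FLT3- replicate 1 (0.67, 0.0659) or 2 (0.51, 0.130), and the E2A-KO LMPP rise without LSK FLT3- replicate 2 (0.57, 0.0889).

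Cd3d and Cd3g, the delta and gamma chains, lie next to Cd3e on chromosome 9, with Cd3d between the other two genes and read on the opposite strand to both. Cd3d (1422828_at) read 3.49 and 3.31 in LSK FLT3-, 3.79 and 3.59 for WT LMPP and 3.61 and 3.54 for E2A-KO LMPP. Cd3g (1419178_at) read 2.77 and 2.77, 3.35 and 2.74, and 2.99 and 2.82 in the same order. The values of both genes on all 6 arrays were under the floor guide of their array, so neither gene was distinguishable from probe sets with little target. Neither passed in any comparison: for E2A-KO against WT LMPP the differences were -0.12 for Cd3d (95% interval -0.43 to 0.20) and -0.14 for Cd3g (-0.58 to 0.31). From LSK FLT3- to WT LMPP they were 0.29 (-0.02 to 0.61) and 0.28 (-0.17 to 0.72), beside a median of 0.21 over the 44 olfactory receptor probe sets in that comparison. With WT LMPP replicate 2 left out Cd3g did pass there (0.58, adjusted p = 0.0259), and with replicate 1 left out it was -0.03.

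Cd247 encodes the zeta chain, which carries most of the receptor's signalling motifs. Its main probe set, 1426396_at, read 3.89 and 3.99 in LSK FLT3-, 4.42 and 4.97 for WT LMPP and 4.12 and 4.21 for E2A-KO LMPP. The 3 groups did not overlap, and the WT LMPP arrays were the highest and the farthest apart. Both E2A-KO LMPP values were under the floor guide of their arrays, so they were not distinguishable from probe sets with little target. The WT values were above the guide of theirs. Cd247 was 0.75 higher in WT LMPP than in LSK FLT3- (SE 0.18, limma adjusted p = 0.0137), a 1.69-fold difference. E2A-KO LMPP stood -0.53 from WT LMPP (95% interval -0.94 to -0.11, adjusted p = 0.227) and 0.23 from LSK FLT3- (-0.19 to 0.64, adjusted p = 0.349), and neither passed. The genotype difference was -0.80 without WT LMPP replicate 1, -0.25 without replicate 2, -0.31 with log2(value + 16) and -0.11 averaged over its 4 probe sets. Its other 3 probe sets, at 2.62 to 3.86, were under the floor guide on every array, and none passed in any comparison. Averaged over all 4 probe sets, the stage difference was 0.33 and did not pass (adjusted p = 0.0690), nor did it without LSK FLT3- replicate 1 (0.71, 0.101) or 2 (0.80, 0.0743). It was 0.48 without WT LMPP replicate 2 (adjusted p = 0.0463).

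Zap70 is the kinase that binds the phosphorylated CD3 and zeta chains, and B lineage and natural killer cells are known to use it as well. Its main probe set, 1439749_at, read 5.97 and 5.99 in LSK FLT3-, 5.94 and 6.35 for WT LMPP and 6.83 and 6.62 for E2A-KO LMPP. The E2A-KO arrays were the highest and did not overlap either other group, while 1 WT LMPP array lay with the LSK FLT3- arrays. Zap70 was 0.75 higher in E2A-KO LMPP than in LSK FLT3- (SE 0.16, limma adjusted p = 0.00807), a 1.68-fold difference. It was 0.58 higher than in WT LMPP, which did not pass after adjustment (95% interval 0.21 to 0.95, adjusted p = 0.146; 0.38 without WT LMPP replicate 1 and 0.28 averaged over its 3 probe sets), and WT LMPP differed from LSK FLT3- by 0.17 (-0.20 to 0.54, adjusted p = 0.450). The call against LSK FLT3- was lost without LSK FLT3- replicate 1 (0.74, 0.0644) or 2 (0.76, 0.0598) and was larger, at 1.13, after quantile normalization (adjusted p = 0.00258).

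The other 2 Zap70 probe sets lay near the floor guide. That guide was itself higher on the LMPP arrays, at 4.08 to 4.44, than on the LSK FLT3- arrays, at 3.67 and 3.70. In E2A-KO LMPP against LSK FLT3-, 15.9% of olfactory receptor probe sets rose (median 0.26). In the WT stage comparison 11.4% did (median 0.21). The part of this shift in the rises of these 2 probe sets was not tested. Probe set 1422701_at read 3.53 and 3.65 in LSK FLT3-, 4.03 and 4.28 for WT LMPP and 4.22 and 4.2 for E2A-KO LMPP. Probe set 1440178_x_at, whose suffix marks probes that can match other transcripts, read 3.87 and 3.72, 3.91 and 4.47, and 4.26 and 4.53. Tested over all 45101 probe sets, of which 28.5% passed in that comparison, 10.5% higher and 18% lower, all 3 Zap70 probe sets were higher in E2A-KO LMPP than in LSK FLT3-, by 0.75, 0.62 (1422701_at) and 0.60 (1440178_x_at), with adjusted p = 0.0110, 0.0135 and 0.0499. They parted on the stage difference in WT cells, where 23.6% of probe sets passed, 8.09% higher and 15.5% lower: 1422701_at was 0.56 higher in WT LMPP (adjusted p = 0.0238), and the main probe set did not pass. Between the LMPP genotypes, where 0.987% of probe sets passed, 0.426% higher and 0.561% lower, the differences were 0.58, 0.06 and 0.20, and none passed.

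**Figure D3:**
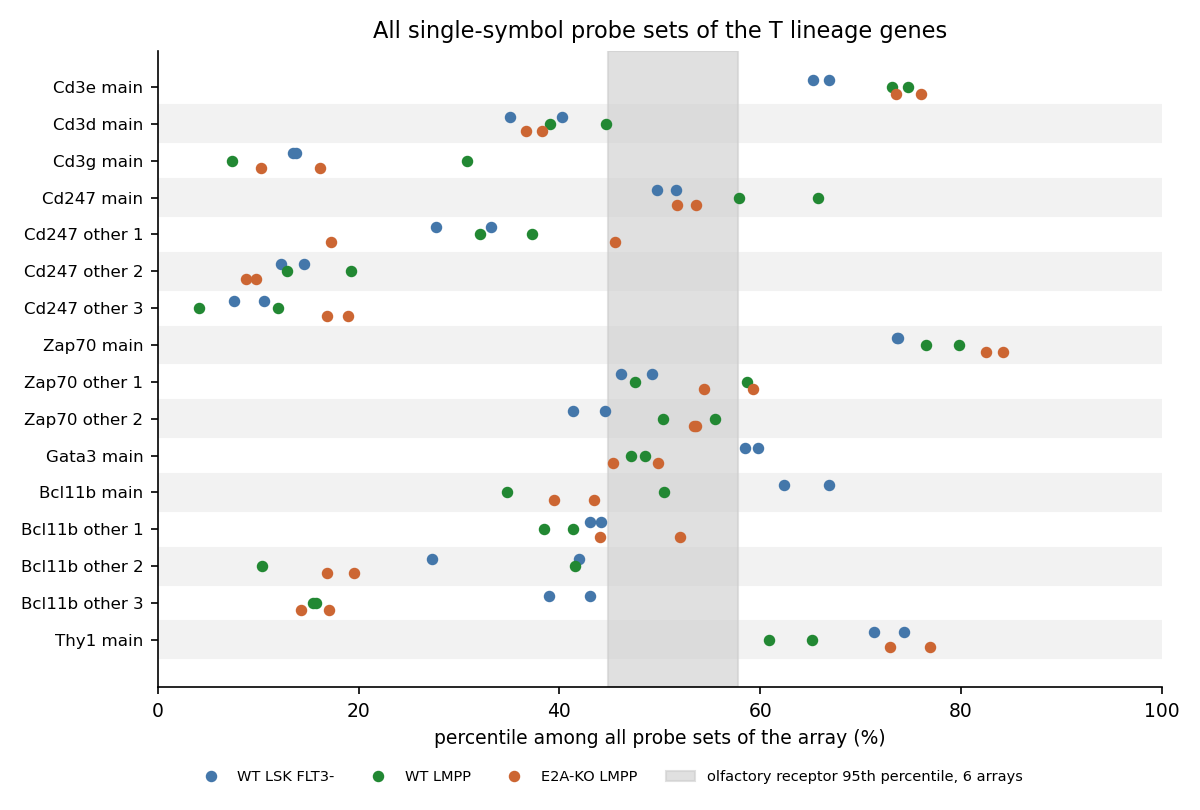
Percentile among all probe sets of the same array (x axis) for the 16 single-symbol probe sets of the measured members (y axis); points are arrays coloured by group, and the grey band is the range over the 6 arrays of the olfactory receptor 95th percentile. The main Cd3e and Thy1 probe sets lie right of the band at percentiles of 60.9 and above, while the other probe sets of Cd247 and all those of Cd3d and Cd3g lie left of it or in its lowest part.

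Among the regulators, Gata3 encodes a zinc finger factor needed for the earliest T cell precursors and for innate lymphoid cells. Its probe set, 1448886_at, read 4.53 and 4.43 in LSK FLT3-, 3.95 and 3.89 for WT LMPP and 4.04 and 3.83 for E2A-KO LMPP. Both LSK FLT3- arrays were above all 4 LMPP arrays, and the LMPP genotypes overlapped. Against LSK FLT3-, Gata3 fell by 0.56 in WT LMPP (SE 0.13, limma adjusted p = 0.0130) and by 0.55 in E2A-KO LMPP (SE 0.13, adjusted p = 0.0134). All 4 LMPP values lay under the floor guide of their arrays. With that guide in place of the values, the mean in LSK FLT3- was 1.29-fold (WT) and 1.12-fold (E2A-KO) higher, figures that carry no interval. Between the LMPP genotypes the difference was 0.02 (95% interval -0.29 to 0.32). The WT call was lost without LSK FLT3- replicate 1 (-0.51, adjusted p = 0.110) or 2 (-0.61, 0.0711), the E2A-KO call without either of these (-0.50, 0.111 and -0.60, 0.0687) or E2A-KO LMPP replicate 2 (-0.45, 0.0634), and log2(value + 16) gave -0.30 and -0.29.

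Bcl11b encodes the zinc finger factor that seals T cell commitment. Its main probe set, 1435227_at, read 5.19 and 4.76 in LSK FLT3-, 4.03 and 3.46 for WT LMPP and 3.64 and 3.77 for E2A-KO LMPP. Both LSK FLT3- arrays were above all 4 LMPP arrays, which lay under the floor guide. Bcl11b fell by 1.23 from LSK FLT3- to WT LMPP (SE 0.21, limma adjusted p = 0.00312) and fell by 1.27 to E2A-KO LMPP (SE 0.21, adjusted p = 0.00241). With the floor guide of the LMPP arrays in place of their values, the mean in LSK FLT3- was 1.81-fold (WT) and 1.57-fold (E2A-KO) higher. These figures carry no interval. The LMPP genotypes overlapped and differed by -0.04 (95% interval -0.52 to 0.44).

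The 4 Bcl11b probe sets did not all move alike. Probe set 1450339_a_at read 3.44 and 3.59 in LSK FLT3- and 2.94 to 3.0 on the 4 LMPP arrays, under the floor guide throughout, and fell by 0.55 to WT LMPP (adjusted p = 0.0191 over all probe sets) and by 0.54 to E2A-KO LMPP (0.0171). Probe sets 1438784_at and 1452966_at, at 2.82 to 4.14, passed in no comparison; their stage differences in WT cells were 0.01 and -0.07. Averaged over all 4 probe sets, the Bcl11b falls were -0.46 (adjusted p = 0.0366) and -0.44 (0.0413), and with log2(value + 16) they were -0.69 and -0.71.

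Thy1 encodes a small glycoprotein anchored in the outer membrane, a marker of T lineage cells that some mouse stem cells also carry. Its single probe set, 1423135_at, read 6.05 and 5.71 in LSK FLT3-, 4.91 and 4.61 for WT LMPP and 5.57 and 5.99 for E2A-KO LMPP. WT LMPP was below both other groups without overlap, and E2A-KO LMPP overlapped LSK FLT3-. Thy1 fell by 1.12 from LSK FLT3- to WT LMPP (SE 0.19, limma adjusted p = 0.00303), a 2.17-fold difference, and was 1.02 higher in E2A-KO than in WT LMPP (SE 0.19, adjusted p = 0.0410), a 2.03-fold difference. E2A-KO LMPP and LSK FLT3- differed by -0.10 (95% interval -0.53 to 0.34, adjusted p = 0.704), and the 2 comparisons that passed share the WT LMPP arrays.

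The genotype call of Thy1 lay close to the threshold. Without either WT LMPP array the difference was 1.17 (replicate 1, adjusted p = 0.0643) and 0.87 (replicate 2, 0.134), without either E2A-KO LMPP array 1.23 (replicate 1, 0.0689) and 0.81 (replicate 2, 0.164), and on the 4 LMPP arrays alone, which is also the fit without either LSK FLT3- array, 1.02 (0.101). The call was also lost with the replicate number as a block (adjusted p = 0.0628), over all probe sets (0.0508) and with log2(value + 16) (0.72, 0.0722). The stage fall of Thy1 kept its call under all 16 alternatives, as did both Bcl11b falls under all 15 in which they could be tested.

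Markers of other cells that the gates could hold were read beside these values. Of 7 measured mature T cell markers, Cd4, Cd8a and Cd3e itself were above the floor guide on all 6 arrays, and Cd3d, Cd3g, Cd5 and Cd28 on 0. Their summed level was 6.84 to 6.85 (log2) in LSK FLT3-, 7.20 to 7.22 in WT LMPP and 7.21 to 7.33 in E2A-KO LMPP, so it moved with Cd3e, which is part of the sum. Of 4 measured innate lymphoid markers, 1 being Gata3, Rora and Il18r1 were above the guide on all arrays; the summed level was 7.11 to 7.23, 7.07 to 7.40 and 7.70 to 7.77 in the same order. Il18r1, a chain of the interleukin-18 receptor, rose by 1.12 in E2A-KO against WT LMPP (SE 0.17, limma adjusted p = 0.0185), the direction of Thy1, while Zbtb16 (-0.38), Rora (-0.23) and Gata3 (0.02) did not pass, so the higher sum rests on Il18r1. Of 5 natural killer markers none was above the guide on all arrays, and Ncr1 was above it on 0, with sums of 5.98 to 6.02, 6.07 to 6.19 and 6.00 to 6.37, and of 3 B cell markers none, with sums of 4.86 to 5.07, 5.43 to 5.57 and 5.02 to 5.47. The 4 neutrophil markers summed to 10.23 to 10.33, 11.18 to 11.19 and 8.54 to 8.77, and all 4 fell in E2A-KO against WT LMPP. The part of these cells in the values of Thy1, Cd3e and Zap70 was not tested.

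The wider T cell programme was read from gene lists. Of 15 other receptor chain and co-receptor genes, 0 passed between the LMPP genotypes by limma and 1 had an unadjusted p under 0.05, with a median of -0.01; the largest difference was -0.48 for Cd6, a T cell surface receptor gene (adjusted p = 0.426). From LSK FLT3- to WT LMPP 3 rose and 0 fell (median 0.17): the costimulatory receptor gene Icos rose by 1.05 (SE 0.24, limma adjusted p = 0.0116), Cd8a by 0.50 (SE 0.13, adjusted p = 0.0186) and Cd28 by 0.44 (SE 0.13, adjusted p = 0.0309). Against LSK FLT3-, 4 rose and 0 fell in E2A-KO LMPP (median 0.20), Icos by 1.06, Cd8a by 0.76 and Ptcra, the surrogate alpha chain of immature T cells, by 0.49. Of the 15, 8 were above the floor guide on 0 arrays, Cd28 and Ptcra among them. Over all genes 10.4% were higher and 23.7% lower by stage, and 11% and 26.5% in E2A-KO LMPP against LSK FLT3-. Between the LMPP genotypes 1.37% of all genes passed, and the share with an unadjusted p under 0.05 was not counted. Olfactory receptor probe sets, tested among all probe sets, had medians of 0.21 by stage and 0.26 in E2A-KO LMPP against LSK FLT3-. Of these 44, 5 and 7 rose, 11.4% and 15.9%, where 8.09% and 10.5% of all probe sets were higher.

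Of 21 genes that pass the receptor signal on, 1 fell between the genotypes and 0 rose (median -0.21): Plcg1, phospholipase C gamma, fell by 1.21 in E2A-KO LMPP (SE 0.17, limma adjusted p = 0.0109). From LSK FLT3- to WT LMPP 3 rose and 5 fell, with Themis, a thymocyte adaptor, at 0.75 and the adaptor Lcp2 and exchange factor Vav1 at -0.69 and -0.69. Themis was above the floor guide on 4 arrays, and olfactory receptor probe sets had a median of 0.21 in this comparison. In E2A-KO LMPP against LSK FLT3- 1 rose and 5 fell, led by the kinase gene Prkcq (-1.18), Plcg1 (-1.18) and the adaptor gene Lat (-0.97), where Zap70 was at 0.75. The medians in these comparisons were 0.03 and -0.09. Among all genes 10.4% were higher and 23.7% lower by stage, and 11% and 26.5% in E2A-KO LMPP against LSK FLT3-. By genotype the shares were 0.379% higher and 0.995% lower.

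Of 19 other transcription factor genes of the T lineage, 2 fell between the genotypes and 0 rose (median -0.17): Ets1 fell by 1.63 (SE 0.23, limma adjusted p = 0.0109) and Notch1, the receptor that starts T cell specification, fell by 1.29 (SE 0.15, adjusted p = 0.00395). Gata3 and Bcl11b, at 0.02 and -0.04, did not pass in that comparison. From LSK FLT3- to WT LMPP 5 rose and 7 fell (median 0.01), with Satb1 at 1.33, Notch1 at 1.08 and Zfpm1, which encodes a Gata partner protein, at -2.28. In E2A-KO LMPP against LSK FLT3- 2 rose and 8 fell (median -0.17), led by Zfpm1 (-2.28), Ets2 (-1.43) and Runx3 (-1.02). Over all genes 10.4% were higher and 23.7% lower in the stage comparison and 11% and 26.5% in E2A-KO LMPP against LSK FLT3-. Between the LMPP genotypes 0.379% of all genes were higher and 0.995% lower. The medians over all genes were -0.02 (genotype), -0.01 (stage) and -0.02 (E2A-KO LMPP against LSK FLT3-).

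**Figure D4:**
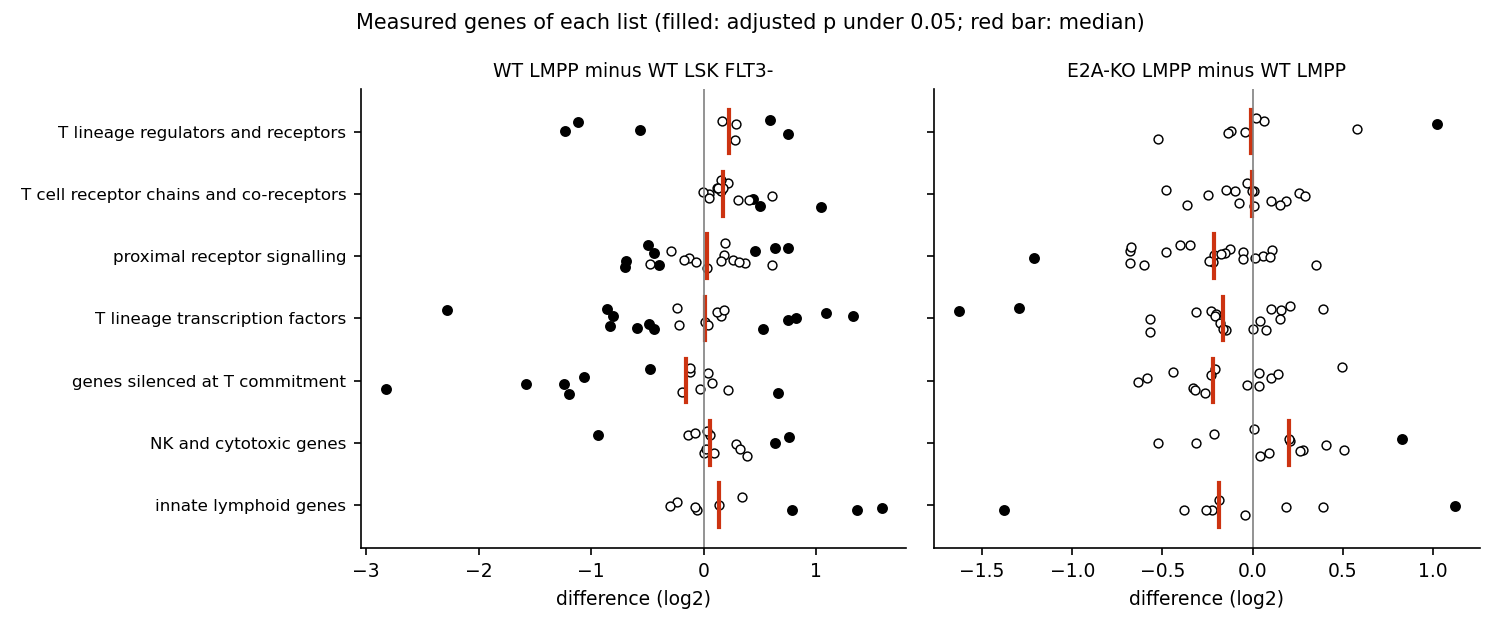
Difference in log2 level (x axis) of each measured gene of the T lineage set and of 6 related lists (y axis) in the stage comparison (left) and the genotype comparison (right); filled points passed with an adjusted p under 0.05 and red bars are medians. On the right the filled points of the first 4 lists are Thy1 at 1.02, Plcg1 at -1.21, Ets1 at -1.63 and Notch1 at -1.29.

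The genes most like the 3 members with the widest range of group means were taken by Pearson's r over the 6 arrays, among genes whose own group means spanned at least 1. For Bcl11b the lower end of that range lay under the floor guide. The arrays form 3 groups, so r mainly compares group means, and it is given as a description. For Bcl11b these were Il18 (r = 0.995), Zfp429 (0.994) and Klhl13 (0.993) of 1746 genes. Il18, a cytokine gene, was at 8.13 in LSK FLT3-, 6.94 for WT LMPP and 6.89 for E2A-KO LMPP. For Thy1 they were the lectin gene Clec4d (0.973), Coq3 (0.965) and S100a6 (0.931), and Clec4d was at 7.12, 5.0 and 6.94 in the same order. For Cd247 they were Abcc8 (0.968), Mxd3 (0.966) and the homeobox gene Hlx (0.945) of 1747 genes, with Hlx at 5.54, 6.58 and 5.71.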

How the data were processed

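The deposited values are probe set intensities on a linear scale, from 4.23 to 25594, made by the authors; the submitters' processing notes name RMA and no version. RMA corrects background, normalizes between arrays and summarises probes; whether the arrays were summarised in 1 run was not given in the sources used here. Per the labels' protocols, RNA went through 2 rounds of amplification, which favours 3' ends. Samples were grouped by title, since another label calls every sample wild-type LMPP. Log2 was taken with no pseudocount and no filter. Of 45101 probe sets, 34958 had 1 symbol, 932 several and 9211 none; 34754 of the first matched a GRCm38.p6 RefSeq table by Entrez ID, which also gave gene order and promoters.

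limma 3.58.1 in R 4.3.3 fitted 1 mean per group on all 6 arrays (3 residual and 5.8 prior degrees of freedom), two-sided. The number of arrays limits precision. SEs and intervals are from the model. The test was checked on simulated data. The members and lists were chosen with earlier results of these data known. All measured members are named, and of each list up to 3 genes past the threshold, by size of change, or the largest where none passed, and for 3 members the 3 genes with the highest r. Alternatives were a replicate block, a fit to 4 arrays, quantile normalization, median centring, log2(value + 16), and a variance trend with robust estimation. Others left out the dimmest 40% of genes or each array in turn, or took probe sets averaged per gene or tested singly. The last were an adjusted p under 0.1 and calls of at least 2-fold. Same-numbered arrays did not deviate together (correlations of -0.04 to 0.02), so the numbers were not used as pairs. Figures used matplotlib 3.10.9 in Python 3.11.15.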

Additional observations from a re-analysis of the deposited data

How the results depend on the processing

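Each member was tested in 3 comparisons, 24 results in all. Of the 10 that passed, 3 kept their call under every alternative run and 7 lost it under at least 1, as given with each gene; none of the 10 changed direction. Of the 14 that did not pass, 1 passed under 1 alternative (Cd3g, stage, without WT LMPP replicate 2), and 9 changed sign under at least 1. With quantile normalization the sign changed for E2A-KO LMPP against LSK FLT3- in Cd3d (-0.0074), Cd3g (-0.011) and Thy1 (0.22), and for the genotype in Gata3 (-0.0050); with median centring in Cd3g against LSK FLT3- (-0.00032) and Gata3 by genotype (-0.013); and in Bcl11b by genotype when its probe sets were averaged (0.023). Leaving out 1 array gave genotype differences of -0.064 to 0.19 for Cd3e, -0.45 to 0.17 for Cd3g, -0.084 to 0.12 for Gata3 and -0.32 to 0.24 for Bcl11b, stage differences of -0.034 to 0.58 for Cd3g and -0.036 to 0.37 for Zap70, and -0.31 to 0.11 for Thy1 in E2A-KO LMPP against LSK FLT3-. Without the dimmest 40% of genes 4 of the 8 members remained; Cd3d, Cd3g, Gata3 and Bcl11b have no value there.

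The number of genes that passed by genotype was 250, and it was 89 on the 4 LMPP arrays, 445 over all probe sets, 548 with a variance trend, 123 at 2-fold, 508 at an adjusted p under 0.1 and 89 to 164 without 1 array. For the stage comparison it was 6198, against 10648 over all probe sets, 3496 with quantile normalization, 1214 at 2-fold and 2370 to 6410 without 1 array. For E2A-KO LMPP against LSK FLT3- it was 6822, against 12853, 3617, 1358 and 2944 to 7515. The share of stage calls that were higher in LMPP was 30.5% as deposited, 47.4% with quantile normalization and 17.8% with median centring. For E2A-KO LMPP against LSK FLT3-, the share higher in E2A-KO LMPP was 29.3%, 44% and 14.6% in the same order. Median centring moved the median of all genes by -0.11 and -0.14 in these comparisons. The replicate block gave 200, 5914 and 6535 genes in the genotype, stage and E2A-KO LMPP against LSK FLT3- comparisons; the titles number the arrays without saying that numbers pair samples. Among the members it ended the genotype call of Thy1 (adjusted p = 0.0628) and changed no other call. Causes were not tested. Signal over background was low for Cd3d, Cd3g, Gata3, Bcl11b and Cd247, which lay near or under the floor guide in at least 1 group, and 2 arrays per group limit every comparison.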

Other observations

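Lists of innate lymphoid and cytotoxic genes, which share surface and regulator genes with T cells, were read in the same fit. Of 9 innate lymphoid genes, 1 rose and 1 fell between the LMPP genotypes (median -0.19): Il18r1 rose by 1.12, and Id2, whose product blocks E proteins from DNA, fell by 1.38 (SE 0.21, limma adjusted p = 0.0181). From LSK FLT3- to WT LMPP 3 rose and 0 fell (median 0.14), Id2 by 1.58, the nuclear receptor gene Rora by 1.36 and the factor Nfil3 by 0.79. In E2A-KO LMPP against LSK FLT3- 3 rose and 0 fell (median 0.15): Rora by 1.14, Il18r1 by 0.82 and Nfil3 by 0.74. Rora was thus above its LSK FLT3- level in both LMPP genotypes, at 5.57 (WT) and 5.35 (E2A-KO) against 4.21. Nfil3 was above the floor guide on 5 arrays. Among all genes 0.379% were higher and 0.995% lower by genotype. The shares were 10.4% and 23.7% by stage, and 11% and 26.5% in E2A-KO LMPP against LSK FLT3-.

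Of 13 natural killer and cytotoxic genes, Nkg7, a cytotoxic granule protein gene, rose between the genotypes (0.83, SE 0.14, limma adjusted p = 0.0269), and 0 fell (median 0.20). Its levels were 9.09 in LSK FLT3-, 8.14 for WT LMPP and 8.97 for E2A-KO LMPP, lowest in WT LMPP as for Thy1. In the stage comparison 2 rose and 1 fell (median 0.06): the receptor genes Klrd1 at 0.76 and Klrk1 at 0.63, and Nkg7 at -0.94. Klrk1 was above the floor guide on 0 arrays and Klrd1 on 1, and 11.4% of olfactory receptor probe sets rose in this comparison (median 0.21). In E2A-KO LMPP against LSK FLT3- 3 rose and 0 fell (median 0.29), Il2rb by 0.52, Cd160 by 0.43 and Klrk1 by 0.42. Il2rb and Klrk1 were above the floor guide on 0 arrays and Cd160 on 3, where 15.9% of olfactory receptor probe sets rose (median 0.26). Of all probe sets 8.09% were higher by stage and 10.5% in E2A-KO LMPP against LSK FLT3-. Of 11 mature myeloid genes, 7 fell between the genotypes and 0 rose (median -1.37), led by the granule protein genes Ngp (-3.59), Ltf (-3.48) and Lcn2 (-2.83). In the stage comparison 6 of the 11 rose and 0 fell (median 0.66), Camp by 1.52, Ltf by 1.34 and Ngp by 0.97. In E2A-KO LMPP against LSK FLT3- 7 fell and 0 rose (median -0.96), led by Ngp (-2.62), Ltf (-2.14) and Lcn2 (-2.08). Lcn2 was above the floor guide on 4 arrays and Ltf on 5. Beside both lists, 0.379% of all genes were higher and 0.995% lower by genotype. The shares were 10.4% and 23.7% by stage, and 11% and 26.5% in E2A-KO LMPP against LSK FLT3-.

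Of 14 progenitor genes that are known to be silenced at T cell commitment, 0 passed between the genotypes by limma and 5 had an unadjusted p under 0.05, with Bcl11a, the relative of Bcl11b, at -0.64 (adjusted p = 0.0766) and a median of -0.22. From LSK FLT3- to WT LMPP 1 rose and 6 fell (median -0.16), led by Gata2 (-2.83), Gfi1b (-1.58) and Kit (-1.24), a gate marker. In E2A-KO LMPP against LSK FLT3- 1 rose and 8 fell (median -0.48), led by the same genes at -2.73, -2.16 and -1.56. Gfi1b was above the floor guide on 4 arrays. Over all genes 10.4% were higher and 23.7% lower in the stage comparison, and 11% and 26.5% in E2A-KO LMPP against LSK FLT3-. Between the LMPP genotypes 1.37% of all genes passed, and the share with an unadjusted p under 0.05 was not counted.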
